A study of Homo sapiens with 6 samples.

Results

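The genes described here encode the proteins of the mitochondrial ribosome. They were picked by symbol alone, as MRPL (large subunit) or MRPS (small subunit) with a number and, in some, a letter A to C. The symbol rule used no measured value, but this family was chosen with earlier results of these data known. Of 56638 gene symbols counted in each library, 76 matched, 47 of the large and 29 of the small subunit. They were measured by RNA sequencing in DLD-1 cells, an established epithelial line from a human colorectal carcinoma, at passages given as 16 to 19. One group of 3 libraries came from cells transfected with a control siRNA and the other, also of 3, from cells given an siRNA against lncSLCC1, a long noncoding RNA. Both groups therefore went through transfection, and no untransfected cells were sampled. The comparison asks how transcript levels of both subunits differ when lncSLCC1 is knocked down. The sources used here do not give the siRNA sequences or the time after transfection. Nothing in the labels ties the replicates to separate cultures. The p-values therefore reflect only variation among these libraries, and that variation may be technical.

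The mitochondrial ribosome translates the few messenger RNAs made inside the organelle, all of which code for subunits of the respiratory chain and of ATP synthase. Its ribosomal RNAs are transcribed from mitochondrial DNA, whereas every one of its proteins is encoded in the nucleus, made in the cytosol and imported, so that the particle depends on output from both genomes. Some of its proteins descend from the bacterial ribosome, and others have no bacterial counterpart and were added during the evolution of mitochondria.

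Reads assigned to genes numbered 12572277 to 15568075 per library. The targeted RNA, listed as RP11-400N13.2, was at 5.2, 9.31 and 9.04 CPM (read counts relative to the library size, as scaled by the TMM method) in controls 1 to 3 and at 1.66, 2.62 and 2.1 CPM after its siRNA. It fell (log2 fold change -1.88, SE 0.26, adjusted p = 0.0027, edgeR's quasi-likelihood test), and its groups did not overlap. All 8 epithelial markers were detected, among them KRT8 at a control mean of 3726 CPM, and of 10 markers of fibroblasts, endothelium and blood, which together came to 1.6 to 2.54 CPM per library, only COL1A1 had enough reads to be tested (21 to 32 per library). DCN, LUM, PECAM1 and HBB were at 0 reads in every library.

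Of the 76 genes, 74 had enough reads to be tested, 46 of the large and 28 of the small subunit. MRPL30 was left out at 0 or 1 read per library and MRPS24 at 4 to 7 reads. In the GENCODE 29 annotation 77% of the exon bases of MRPS24 are shared with the readthrough gene URGCP-MRPS24, which was itself listed at 0 reads in every library. Among the tested genes, reads per gene and library ran from 52 to 3340.

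Transcripts of both subunits were on balance lower after lncSLCC1 siRNA, by an amount that few single genes carried past the test. The median log2 fold change was -0.26 over the large subunit and -0.2 over the small, against 0.01 over all 15242 tested genes. The fitted change lay below 0 for 41 of 46 large subunit genes and 22 of 28 small subunit genes, against 49% of all tested genes. At an adjusted p under 0.05 in edgeR's quasi-likelihood test, 5 of the 74 genes were lower, beside 7.39% of all tested genes. For higher levels the count was 0 of 74, beside 6.46% of all tested genes. DESeq2 and limma-voom also called 0, beside 6.4% and 6.34%. The share of genes called lower was thus near that of the genome. At an unadjusted p under 0.05, 26 were lower and 1 higher, where 16.3% and 15.3% of all tested genes were. These counts were 14 and 2 with library totals in place of TMM, and 40 and 1 without control replicate 3. Shares of all tested genes at an unadjusted p were not computed for these 2 fits. At an adjusted p under 0.05, 5.34% of all tested genes were lower and 9.46% higher with library totals. Without control replicate 3 these shares were 13.4% and 10.3%. All lncSLCC1 siRNA libraries lay below all controls for 25 of the 74 genes (33.8%), 17 of the large and 8 of the small subunit, against 19.6% of all tested genes. The reverse held for MRPS10 and MRPS16 alone, against 19.4% of all tested genes. In bulk RNA, fewer cells with a high level and less RNA in each cell cannot be told apart.

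**Figure D1:**
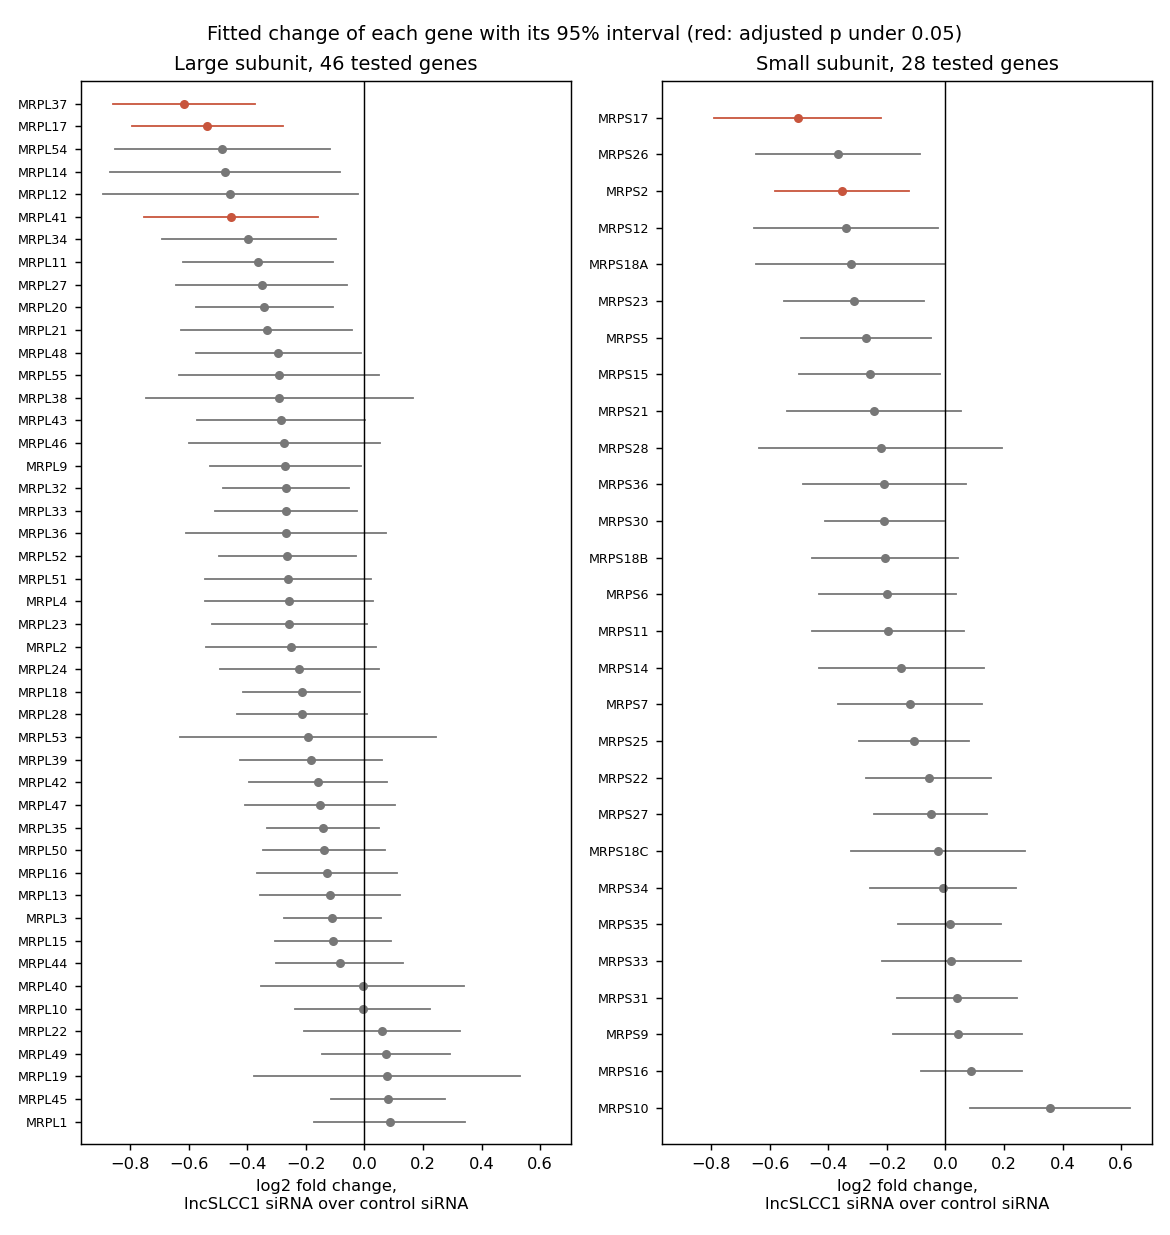
Fitted log2 fold change (x axis) of each tested gene, with its 95% interval, for the large (left, 46 genes) and the small subunit (right, 28 genes), with the genes past an adjusted p of 0.05 in red. Most points lie left of 0 in both panels, 5 genes are red, and MRPS10 lies farthest to the right.

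The count of calls depended on which libraries were in the fit. It was 18 lower genes without control replicate 1 and 31 without control replicate 3, but 1 without control replicate 2, 1 without lncSLCC1 siRNA replicate 1, 0 without lncSLCC1 siRNA replicate 2 and 1 without lncSLCC1 siRNA replicate 3. The share of all tested genes called lower moved with it, at 15.5%, 13.4%, 2.26%, 2.04%, 1.6% and 1.56% in the same order. In the edgeR fit with no call, 9 of the 74 were lower at an unadjusted p under 0.05. The share of all tested genes at that threshold was not computed for this fit. The single gene called in the fits with 1 call was MRPL37.

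The 5 genes that fell comprise 3 of the large subunit, MRPL37, MRPL17 and MRPL41, and 2 of the small, MRPS17 and MRPS2. MRPL17, MRPS17 and MRPS2 are homologues of bacterial ribosomal proteins, and MRPL37 and MRPL41 are specific to mitochondria.

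MRPL37 was at 238, 201 and 179 CPM in controls 1 to 3 and at 142, 125 and 136 CPM in replicates 1 to 3 of the knockdown. Every knockdown library lay below every control, and control replicate 1 was the highest. Its mean fell from 206 ± 29.9 to 134 ± 8.78 CPM (SD, n = 3), to 65.3% of control (log2 fold change -0.62, SE 0.11, adjusted p = 0.00757, edgeR's quasi-likelihood test). Of 14 alternative fits, 13 kept the call, and without lncSLCC1 siRNA replicate 2 the adjusted p was 0.0592.

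MRPL17 was at 189, 148 and 137 CPM in the controls and at 111, 109 and 107 CPM after lncSLCC1 siRNA. The groups did not overlap, and the knockdown libraries lay much closer together than the controls. The mean fell from 158 ± 27.4 to 109 ± 1.93 CPM (SD, n = 3), to 68.9% of control (log2 fold change -0.54, SE 0.12, adjusted p = 0.0164, edgeR's quasi-likelihood test).

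MRPL41, whose product has also been described to bind the apoptosis regulator BCL2, was at 95.9, 80.1 and 63.8 CPM in the controls and at 57.9, 58 and 58.8 CPM after lncSLCC1 siRNA. The groups did not overlap, but control replicate 3 stood close to the knockdown libraries. The mean fell to 72.9% of control (log2 fold change -0.46, SE 0.13, adjusted p = 0.0486, edgeR's quasi-likelihood test).

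MRPS17 was at 52.3, 41.8 and 37.2 CPM in the controls and at 30.4, 31.4 and 30.7 CPM after lncSLCC1 siRNA, again without overlap. It fell to 70.5% of control (log2 fold change -0.5, SE 0.13, adjusted p = 0.031, edgeR's quasi-likelihood test). MRPS2 was at 103, 83.9 and 81.5 CPM in the controls and at 72.1, 68.3 and 69.4 CPM after lncSLCC1 siRNA. No library of one group reached the other, and the mean fell to 78.3% of control (log2 fold change -0.35, SE 0.1, adjusted p = 0.0477, edgeR's quasi-likelihood test).

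The call on each of MRPL17, MRPL41, MRPS17 and MRPS2 was lost in edgeR's quasi-likelihood test when control replicate 2 was left out (adjusted p = 0.0575, 0.144, 0.0892 and 0.102, in that order). It was also lost without lncSLCC1 siRNA replicate 1 (0.0702, 0.146, 0.115 and 0.135), replicate 2 (0.0821, 0.165, 0.117 and 0.186) and replicate 3 (0.0854, 0.152, 0.12 and 0.167). Without control replicate 1, the highest library for all 5 genes, all 5 kept their calls at smaller fitted changes, from -0.24 for MRPS2 to -0.5 for MRPL37. MRPL41 and MRPS2 were just inside the threshold and lost the call with library totals in place of TMM (0.0705 and 0.0667), with a mean of at least 1 CPM as the filter (0.0506 and 0.05) and in limma-voom (0.0619 and 0.0534).

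**Figure D2:**
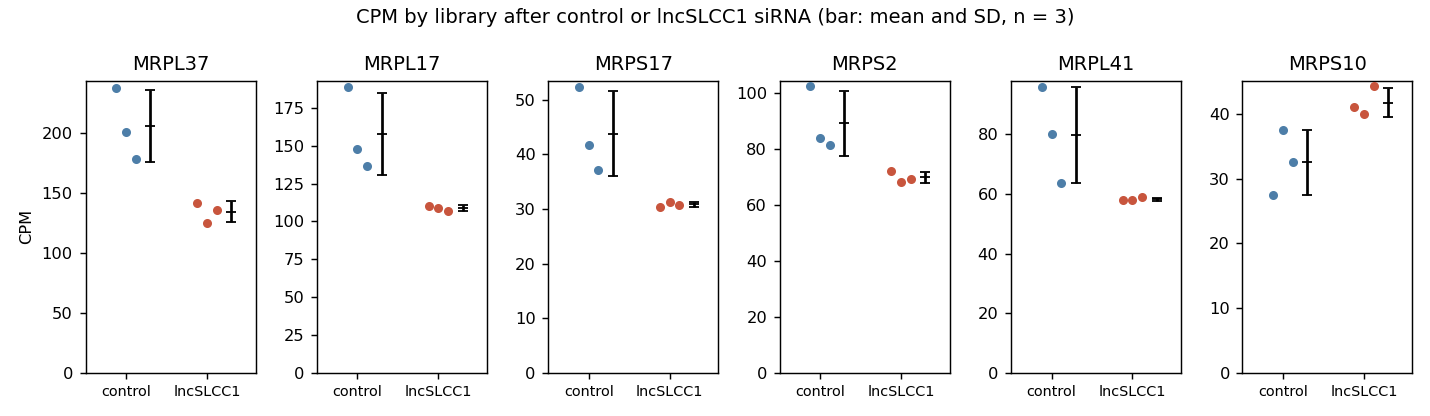
CPM (y axis, from 0) in each library for the 5 genes that fell and MRPS10, with controls in blue and lncSLCC1 siRNA in red, and bars for mean and SD of 3 libraries. The groups do not overlap in any panel, and the knockdown libraries are more tightly grouped than the controls.

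MRPS10, a homologue of a bacterial small subunit protein, had the highest fitted change among the 74 genes. It was at 27.5, 37.6 and 32.7 CPM in the controls and at 41.1, 40 and 44.3 CPM after lncSLCC1 siRNA. All knockdown libraries lay above all controls, and control replicate 1, the highest library for the 5 genes above, was here the lowest. The log2 fold change was 0.36 (SE 0.12) and missed the threshold (adjusted p = 0.0775, edgeR's quasi-likelihood test). It passed without control replicate 1 (adjusted p = 0.027), with no low-count filter (0.0373) and with an offset for transcript length and GC content (0.00821).

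The promoters of these 6 genes, the 5 that fell and the one with the highest fitted change, are shown to set genes that changed in parallel beside one with the opposite sign. They come from the RefSeq table of build GRCh38.p14 and span 250 bases before to 50 after the annotated start, written 5′ to 3′ on the strand of the gene. Capitals mark matches, on either strand, to 5 motifs: the NRF1 core GCATGCGC, the ETS core CCGGAAG, the YY1 core AANATGGC, the E-box CACGTG and the CCAAT box CCAAT. The windows are chr1:54199917-54200216 (plus strand) for MRPL37, chr11:6683291-6683590 (minus strand) for MRPL17, chr9:137551629-137551928 (plus strand) for MRPL41, chr7:55951627-55951926 (plus strand) for MRPS17, chr9:135500432-135500731 (plus strand, the first of 2 starts in the table) for MRPS2 and chr6:42217812-42218111 (minus strand) for MRPS10.
MRPL37: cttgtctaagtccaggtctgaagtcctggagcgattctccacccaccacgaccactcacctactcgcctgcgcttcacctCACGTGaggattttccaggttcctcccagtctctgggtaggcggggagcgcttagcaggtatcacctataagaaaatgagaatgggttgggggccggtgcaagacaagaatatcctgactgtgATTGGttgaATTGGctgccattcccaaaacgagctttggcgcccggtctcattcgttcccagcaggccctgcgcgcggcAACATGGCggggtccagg
MRPL17: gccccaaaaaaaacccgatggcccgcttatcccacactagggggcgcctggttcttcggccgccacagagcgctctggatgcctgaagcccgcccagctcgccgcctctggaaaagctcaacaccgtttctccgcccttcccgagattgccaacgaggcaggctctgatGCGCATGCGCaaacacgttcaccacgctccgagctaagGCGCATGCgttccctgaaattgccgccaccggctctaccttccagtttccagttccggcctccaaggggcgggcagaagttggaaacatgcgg
MRPL41: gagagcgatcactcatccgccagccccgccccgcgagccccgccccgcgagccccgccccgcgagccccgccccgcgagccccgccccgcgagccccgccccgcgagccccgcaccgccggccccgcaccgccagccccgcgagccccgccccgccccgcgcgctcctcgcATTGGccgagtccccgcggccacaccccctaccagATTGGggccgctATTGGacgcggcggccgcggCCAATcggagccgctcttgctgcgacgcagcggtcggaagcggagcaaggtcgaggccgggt
MRPS17: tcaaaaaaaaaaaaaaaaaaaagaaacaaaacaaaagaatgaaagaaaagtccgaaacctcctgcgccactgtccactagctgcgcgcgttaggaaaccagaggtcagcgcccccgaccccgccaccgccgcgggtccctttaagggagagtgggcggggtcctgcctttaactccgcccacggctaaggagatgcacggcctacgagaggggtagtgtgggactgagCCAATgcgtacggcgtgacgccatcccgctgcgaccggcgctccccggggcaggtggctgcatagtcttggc
MRPS2: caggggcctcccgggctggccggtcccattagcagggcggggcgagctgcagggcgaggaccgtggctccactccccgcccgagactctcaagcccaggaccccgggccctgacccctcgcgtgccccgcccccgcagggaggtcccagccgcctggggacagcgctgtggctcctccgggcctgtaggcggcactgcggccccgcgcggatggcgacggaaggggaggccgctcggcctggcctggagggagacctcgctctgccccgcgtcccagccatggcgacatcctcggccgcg
MRPS10: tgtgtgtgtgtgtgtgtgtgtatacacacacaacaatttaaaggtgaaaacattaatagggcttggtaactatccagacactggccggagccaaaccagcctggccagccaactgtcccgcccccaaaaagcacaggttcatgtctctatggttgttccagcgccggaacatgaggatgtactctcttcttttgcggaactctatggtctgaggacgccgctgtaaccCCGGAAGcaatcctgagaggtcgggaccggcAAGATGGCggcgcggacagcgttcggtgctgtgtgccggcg

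None of the 5 motifs was present in all 5 promoters of the genes that fell. MRPL17 held 3 NRF1 matches, 2 of them overlapping on opposite strands, and no other motif. MRPL37 held 1 YY1 match just past its start, 1 E-box and 2 CCAAT boxes. MRPL41 held 4 CCAAT boxes and MRPS17 held 1. MRPS2 held none of the 5. MRPS10 held 1 ETS and 1 YY1 match. No pair of different motifs overlapped in these 6 windows.

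Promoters of 65 of the 74 tested genes were in the table. The YY1 core was found in 36.9% of them, against 10.4% of the promoters of all tested genes in the table and 6.8% of all 27305 promoters. The ETS core was in 41.5%, against 18.9% and 10.7%. The NRF1 core was in 9.2%, against 5.5% and 3.3%. The E-box (9.2%, against 10.1% and 7.4%) and the CCAAT box (30.8%, against 36.6% and 35.7%) were at shares nearer to those of other genes. By subunit, the YY1 core was in 15 of 39 large and 9 of 26 small subunit promoters, and the ETS core in 15 of 39 and 12 of 26. A match is a description of the letters in this window and not evidence of binding.

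Among the other large subunit genes none passed edgeR's quasi-likelihood test, and DESeq2 called MRPL20, MRPL11 and MRPL54 lower. MRPL20, a homologue of a bacterial protein, came nearest: 163, 144 and 123 CPM in the controls and 117, 109 and 114 CPM after lncSLCC1 siRNA. Its groups did not overlap (log2 fold change -0.34, SE 0.1, adjusted p = 0.0555, edgeR's quasi-likelihood test, and 0.0432 in DESeq2). MRPL54 (-0.48, SE 0.16), MRPL14 (-0.48, SE 0.18) and MRPL12 (-0.46, SE 0.19), named like MRPL11 after their values were seen, had fitted log2 fold changes as low as that of MRPL41 but larger errors. In GENCODE 29, MRPL12 shares 68.2% of its exon bases with another annotated gene, and the sources used here do not give the strand setting of the counting, so reads of overlapping genes cannot be told apart. MRPL28, among the 3 large subunit genes with most reads, was at 169, 142 and 133 CPM in the controls and at 134, 127 and 123 CPM after lncSLCC1 siRNA, with 1 knockdown library above the lowest control. MRPL38 and MRPL53, the 2 tested large subunit genes with fewest reads, had control ranges of 4.75 to 6.48 and 4.69 to 6.48 CPM, and the knockdown libraries of both overlapped these.

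Of the 46 tested large subunit genes, 5 had a fitted change above 0. They were MRPL1, which belongs to a mobile stalk of the subunit, MRPL45, which helps to hold the ribosome at the inner membrane, MRPL49, MRPL22 and MRPL19. MRPL45 was at 72.7, 69.9 and 64.6 CPM in the controls and at 77.4, 70.6 and 71.1 CPM after lncSLCC1 siRNA. Its groups overlapped (log2 fold change 0.08, SE 0.09, adjusted p = 0.561, edgeR's quasi-likelihood test). MRPL49 had a log2 fold change of 0.07 (SE 0.1, adjusted p = 0.645, edgeR), and without control replicate 1 it was 0.18 (adjusted p = 0.0306). The fitted values of MRPL1 (0.09) and MRPL22 (0.06) were smaller than their errors. MRPL19, named after its values were seen, stood out for 1 library: it was at 36.9 CPM in control replicate 1 and between 57.6 and 71.7 CPM in the other 5. Its fitted change, 0.08 (SE 0.2), ranged from -0.17 to 0.25 over 14 alternative fits and lay below 0 in 2 of them.

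MRPL3, a homologue of a bacterial protein close to the catalytic core and the large subunit gene with most reads over all libraries, was at 192, 203 and 207 CPM in the controls and at 183, 180.3 and 195 CPM after lncSLCC1 siRNA. Its groups overlapped, and the log2 fold change was -0.11 (SE 0.07, adjusted p = 0.348, edgeR's quasi-likelihood test). MRPL3 supplied 6.17% of large subunit reads in controls and 6.69% after lncSLCC1 siRNA, whereas MRPL37 went from 6.29% to 4.84% and MRPL17 from 4.82% to 3.93%. MRPL37 was thus ahead of MRPL3 in the pooled controls and behind it after knockdown. Among single controls it was ahead in replicate 1 only (3340 against 2691 reads). MRPL3 already led in control replicate 2 (3124 against 3090) and control replicate 3 (3185 against 2745).

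In the small subunit, MRPS26 and MRPS23, both specific to mitochondria, came nearest to the threshold after MRPS17 and MRPS2 among the lower genes. MRPS26 was at 121, 98 and 83.3 CPM in the controls and at 79.7, 77.1 and 77.7 CPM after lncSLCC1 siRNA, without overlap (log2 fold change -0.37, SE 0.13, adjusted p = 0.0775, edgeR's quasi-likelihood test). MRPS23 was at 77.5, 69.8 and 59.6 CPM in the controls and at 55.5, 53.5 and 57.7 CPM after lncSLCC1 siRNA, also without overlap (-0.31, SE 0.11, adjusted p = 0.0789). MRPS5, a homologue of a bacterial protein, was at 138, 118 and 108 CPM and then at 104, 101 and 96.7 CPM, and its groups did not overlap either (-0.27, SE 0.1, adjusted p = 0.0957).

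The small subunit genes with most reads, MRPS34 and MRPS27, differed little. MRPS34, a mitochondria-specific protein needed for the stability of the small subunit, was at 211, 173 and 153 CPM in the controls and at 184, 169.7 and 181 CPM after lncSLCC1 siRNA. All knockdown libraries lay within the control range, and the log2 fold change was -0.01 (SE 0.11, 95% interval -0.26 to 0.25, adjusted p = 0.975, edgeR's quasi-likelihood test). MRPS27, a protein of the pentatricopeptide repeat family, was at 162, 139.8 and 138 CPM and then at 144, 137 and 144 CPM (-0.05, SE 0.09, adjusted p = 0.717). Both supplied a larger share of small subunit reads after knockdown: MRPS34 from 9.18% to 10.1% and MRPS27 from 7.53% to 8.02%.

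Of the 28 tested small subunit genes, 6 had a fitted change above 0. Beside MRPS10, the named ones were MRPS16 (log2 fold change 0.09), MRPS9 (0.04) and MRPS31 (0.04), and none passed the test. MRPS16 was at 90.6, 87 and 84.5 CPM in the controls and at 91.1, 94.4 and 93.2 CPM after lncSLCC1 siRNA. Its groups did not overlap, but the gap between them was smaller than the spread of either group (SE 0.08, adjusted p = 0.46, edgeR's quasi-likelihood test). MRPS28 had fewest reads among the tested small subunit genes, at 7.48 to 11.1 CPM in controls 2 and 3 and 6.98 in control 1, and its knockdown libraries overlapped these.

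The MRPS18 proteins are 3 paralogues descended from a single bacterial protein, of which MRPS18A is found in the large subunit despite its symbol. MRPS18B was the most abundant per transcript length, at a control mean of 159 TPM (reads scaled to transcript length and to the sum of such values in the library), and MRPS18C stood at 21.3 TPM. MRPS18A was at 38.2, 32.5 and 25.4 CPM in the controls and at 25.1, 27.3 and 24.3 CPM after lncSLCC1 siRNA, with overlap (log2 fold change -0.32, SE 0.14, adjusted p = 0.157, edgeR's quasi-likelihood test). MRPS18B had a log2 fold change of -0.21 (SE 0.11, adjusted p = 0.237, edgeR) and MRPS18C of -0.03 (SE 0.13, adjusted p = 0.915, edgeR). Neither had groups apart. Of the exon bases, 56.9% of MRPS18A are shared with RSPH9 and 78.9% of MRPS18C with ABRAXAS1 in GENCODE 29.

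In 3 further genes the symbol and the place of the protein differ or have been debated. MRPS30, a large subunit protein in spite of its name, was at 56.4, 61.8 and 63.1 CPM in the controls and at 55.4, 52 and 49.5 CPM after lncSLCC1 siRNA. Its groups did not overlap, control replicate 1 was the lowest control, and it missed the threshold (log2 fold change -0.21, SE 0.09, adjusted p = 0.147, edgeR's quasi-likelihood test). Without control replicate 1 it was called lower. MRPS36, tied to the oxoglutarate dehydrogenase complex rather than the ribosome, had a log2 fold change of -0.21 (SE 0.12, adjusted p = 0.277, edgeR), and MRPL42, once listed under both subunits, of -0.16 (SE 0.11, adjusted p = 0.337, edgeR).

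Summed over genes, both subunits had fewer reads after lncSLCC1 siRNA, and the share lost was larger for the large subunit. Large subunit genes together were at 3655, 3243 and 2902 CPM in controls 1 to 3 and at 2817, 2686 and 2823 CPM after lncSLCC1 siRNA. The groups did not overlap, and the knockdown mean was 85% of the control mean (2776 ± 77.7 against 3267 ± 377 CPM, SD, n = 3). As a share of all gene reads, with no TMM scaling, the large subunit took 0.345%, 0.32% and 0.288% in the controls and 0.288%, 0.276% and 0.288% after lncSLCC1 siRNA, and there control replicate 3 and lncSLCC1 siRNA replicate 3 met. Small subunit genes together were at 2178, 1904 and 1759 CPM in the controls and at 1782, 1725 and 1783 CPM after lncSLCC1 siRNA. Here control replicate 3 lay among the knockdown libraries, and the knockdown mean was 90.6% of the control mean (1763 ± 33.3 against 1947 ± 213 CPM). Its shares of all gene reads were 0.206%, 0.188% and 0.175% in the controls and 0.182%, 0.177% and 0.182% after lncSLCC1 siRNA, so that control replicate 3 lay below all knockdown libraries.

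The ratio of large to small subunit reads, which does not depend on library scaling, was 1.68, 1.7 and 1.65 in controls 1 to 3 and 1.58, 1.56 and 1.58 after lncSLCC1 siRNA. Every knockdown library lay below every control, and the means were 1.68 ± 0.0266 and 1.57 ± 0.0145 (SD, n = 3), a difference of -0.104, larger than either spread. No p-value is given, since the ratio is a score over chosen genes. The groups also stayed apart without MRPL3 and MRPS34, the gene of each subunit with most reads over all libraries (1.73 and 1.63), and with proteins assigned by their place in the ribosome (1.52 and 1.43). Without the 5 genes that fell the means were 1.56 and 1.49, a difference of -0.0686, still with no overlap. The ratio of the subunits' median levels, which sets the middle gene of one subunit against that of the other, was 0.923 in controls and 0.959 after lncSLCC1 siRNA, a difference of 0.036 in the opposite direction with overlapping groups. Each gene was also set relative to its log2 mean over the knockdown libraries, and the median over genes was taken in each library. The group means of these medians differed by -0.24 in the large and -0.14 in the small subunit. The medians of the fitted log2 fold changes per gene were closer together, at -0.26 and -0.2. In the cytosolic ribosome, counted in the same way, the ratio went the other way, from 1.52 to 1.54.

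**Figure D3:**
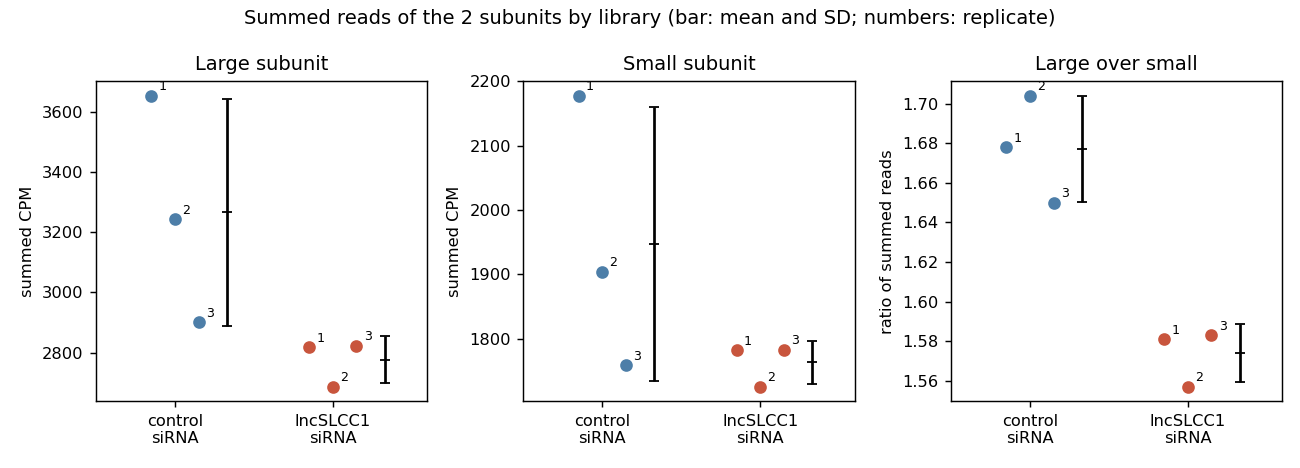
Summed CPM of large (left) and small subunit genes (middle) and the ratio of their summed reads (right) in each library, with replicate numbers beside the points and bars for mean and SD of 3 libraries. The y axes do not start at 0. Control 3 lies among the knockdown libraries in the middle panel only, and the ratio is lower in all 3 knockdown libraries.

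The controls differed among themselves in the same way for most of these genes. Control replicate 1 was the highest of the 6 libraries for 55 of the 74 genes (74.3%), against 32.9% of all tested genes, and lncSLCC1 siRNA replicate 2 was the lowest for 33 (44.6%), against 14.6%. Relative to each gene's mean over the knockdown libraries, the median large subunit gene stood 0.42, 0.22 and 0.07 higher in controls 1, 2 and 3 on the log2 scale, and the median small subunit gene 0.25, 0.13 and 0.00483 higher. Control replicate 3 thus differed least from the knockdown. The median coefficient of variation over the 74 genes was 14.8% among controls and 4.24% among knockdown libraries, against 13.6% and 5.92% over all tested genes. Without control replicate 1 the median log2 fold change was -0.16 for the large and -0.08 for the small subunit, and without control replicate 3 it was -0.34 and -0.23. Control replicate 1 also had the lowest share of reads outside any gene (5.42%, others 6.27% to 7.58%) and the highest share in more than 1 gene (10.1%, others 8.83% to 9.34%). Whether these technical shares have a part in the difference was not tested.

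**Figure D4:**
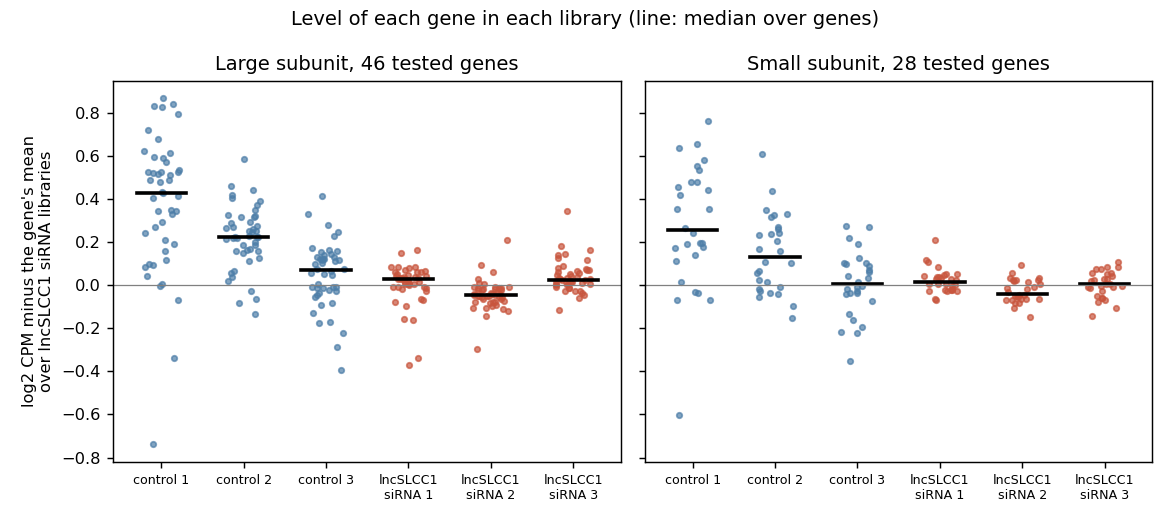
Log2 CPM of each tested gene in each library minus its mean over the 3 lncSLCC1 siRNA libraries (y axis), for the large (left) and small subunit (right), with a bar at the median over genes. The median is highest in control 1 and lowest of the controls in control 3, and the knockdown medians lie close to 0.

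Base composition moved with these values. The GC content of the transcripts (GENCODE 29) was 48.9% in the median over the 74 genes, 52.1% for the large and 47.3% for the small subunit. All 36 genes above 48.9% GC had their highest level in control replicate 1, against 19 of the 38 at or below it. The median log2 fold change was -0.27 in the first set and -0.14 in the second. Across the 74 genes, which share the same 6 libraries, Spearman's rho between GC content and log2 fold change was -0.546, and between GC content and the excess of control replicate 1 over the other controls 0.704. Over 13628 tested genes with a known composition, rho with the log2 fold change was -0.205. Their transcripts were also short, at a median of 1516 bases against 3210 over all tested genes, and rho between length and log2 fold change was 0.376 across the 74. With a trend on length and GC content removed from each library, the median log2 fold changes were -0.16 for the large and -0.14 for the small subunit. In that fit 20 of the 74 genes were lower and 2, MRPL49 and MRPS10, higher, where 18.2% of all tested genes were lower and 12.5% higher. The part of base composition in the ratio of summed reads was not tested.

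Per transcript length, levels within a subunit spanned a wide range although 1 copy of most of these proteins enters each ribosome. In controls the most abundant large subunit transcripts were MRPL20, MRPL23, MRPL37 and MRPL3, at means of 297, 296, 283 and 258 TPM, and the most abundant of the small subunit was MRPS34 at 374 TPM. Over all libraries MRPL3 (259 TPM) was ahead of MRPL37 (243 TPM). Among the tested genes, over all libraries, the least abundant of the large subunit was MRPL38 at 5.92 TPM and of the small subunit MRPS28 at 21.3 TPM. Lengths are those of the longest basic GENCODE transcript, which for MRPL42 runs to 15582 bases, so that its 7.68 TPM depends on that choice.

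The 76 genes lie on 21 chromosomes. Of the 74 tested, 15 (20.3%) have a protein-coding neighbour on the opposite strand whose start lies within 1000 bases, head to head, against 9.8% of 12433 tested protein-coding genes. MRPL46 and MRPS11, of different subunits, form such a pair with 34 bases between their starts. MRPL46 had a log2 fold change of -0.27 (SE 0.15) and MRPS11 of -0.2 (SE 0.12), and neither passed the test (adjusted p = 0.228 and 0.278, edgeR's quasi-likelihood test). MRPL36 and MRPL47 are each paired with a gene of respiratory complex I, NDUFS6 and NDUFB5. The log2 fold changes were -0.27 for both MRPL36 and NDUFS6, and -0.15 for MRPL47 beside 0.07 for NDUFB5. Of 14 partners tested, 9 had a fitted change below 0, beside 49% of all tested genes. These 9 include MRPL46 and MRPS11, each as the partner of the other. Of the 14, 1 was called lower, IGHMBP2 beside MRPL21 (-0.37, adjusted p = 0.0321, edgeR's quasi-likelihood test), where 7.39% of all tested genes were. These pairs were named after their values were seen.

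The other proteins of the particle and the factors that build and serve it were read from lists beside the ribosomal genes. The 7 subunits that carry other names, among them DAP3 and GADD45GIP1, had a median log2 fold change of -0.16 and a range of -0.39 to 0.02. None of the 7 was called by edgeR, DESeq2 or limma-voom. At an unadjusted p under 0.05 in edgeR 2 were lower, beside 16.3% of all tested genes. Without control replicate 1 the median was -0.0172 with 1 gene called lower, beside 15.5% of all tested genes. Without control replicate 3 it was -0.27 with 2 called lower, beside 13.4%. Of 28 assembly factors edgeR called 4 lower (7.39% of all tested genes were) and the other 24 did not pass its test, with a median of -0.13. DESeq2 called 4 lower and 1 higher, beside 8.08% and 6.4% of all tested genes. MPV17L2, which takes part in assembly at the inner membrane, was at 42.9, 38.6 and 32.1 CPM in the controls and at 21.7, 20.4 and 20.5 CPM after lncSLCC1 siRNA. It fell to 55% of control (log2 fold change -0.86, SE 0.12, adjusted p = 0.00271, edgeR's quasi-likelihood test), further than any of the ribosomal genes, and was called whichever library was left out. MALSU1, which keeps the subunits from joining too early, had a log2 fold change of -0.53 (SE 0.13, adjusted p = 0.0296). DHX30, a helicase of large subunit assembly, was at -0.3 (SE 0.08, adjusted p = 0.04), and FTSJ2, a methyltransferase of the large ribosomal RNA also named MRM2, at -0.33 (SE 0.09, adjusted p = 0.0433). MALSU1, DHX30 and FTSJ2 lost their calls without control replicate 2 (adjusted p = 0.105, 0.103 and 0.111, edgeR), without lncSLCC1 siRNA replicate 1 (0.0553, 0.131 and 0.161), replicate 2 (0.135, 0.162 and 0.172) or replicate 3 (0.136, 0.174 and 0.144). The count of lower genes in this list was 8 without control replicate 1 and 9 without control replicate 3, where 15.5% and 13.4% of all tested genes were lower. It was 2 with library totals and 2 with the replicate number as a block, beside 5.34% and 6.95% of all tested genes. In these 2 fits DHX30 (adjusted p = 0.0566 and 0.0528, edgeR) and FTSJ2 (0.0616 and 0.0609) lost their calls.

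Of 16 mitochondrial translation factors, SLIRP, an RNA-binding protein that stabilises mitochondrial messenger RNAs, fell (log2 fold change -0.43, SE 0.11, adjusted p = 0.0302, edgeR's quasi-likelihood test). SLIRP lost its call when control replicate 2 was left out (adjusted p = 0.111, edgeR) and without lncSLCC1 siRNA replicate 1 (0.0964), 2 (0.15) or 3 (0.114). The other 15 did not pass the test, and 7.39% of all tested genes were called lower. The median of the list was -0.001. At an unadjusted p under 0.05 in edgeR 2 were lower and 2 higher, beside 16.3% and 15.3% of all tested genes. Without control replicate 1 edgeR called 1 lower and 1 higher, beside 15.5% and 13.5%. Without control replicate 3 it called 2 lower and 0 higher, beside 13.4% and 10.3%. With the length and GC offset 1 was lower and 2 higher, beside 18.2% and 12.5%. Of mitochondrial transcription 4 genes were tested, with a median of -0.09, and edgeR, DESeq2 and limma-voom called none of them. At an unadjusted p under 0.05 in edgeR 1 was lower, beside 16.3% of all tested genes. Without control replicate 1 edgeR called 2 of the 4 lower, beside 15.5% of all tested genes, and without control replicate 3 it called 1, beside 13.4%.

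The RNAs that the mitochondrion makes itself were measured beside the nuclear genes. Together the 13 mitochondrial messenger RNAs, which the ribosome translates, were at 98.4% of control, with overlapping groups and a median log2 fold change of -0.05. None was called by edgeR, DESeq2 or limma-voom. At an unadjusted p under 0.05 in edgeR 1 was lower and 2 were higher, beside 16.3% and 15.3% of all tested genes. Without control replicate 1, and likewise without control replicate 3, edgeR called 1 lower and 3 higher. In these 2 fits 15.5% and 13.4% of all tested genes were called lower, and 13.5% and 10.3% higher. MT-RNR1, the ribosomal RNA of the small subunit, was at 189, 164 and 261 CPM in the controls and at 149, 157 and 158 CPM after lncSLCC1 siRNA. Its groups did not overlap (log2 fold change -0.4, SE 0.15), and it did not pass the test (adjusted p = 0.0939, edgeR's quasi-likelihood test). It passed without control replicate 1 (0.00223) and with no low-count filter (0.000381). MT-RNR2, the ribosomal RNA of the large subunit, was at 729, 867 and 1099 CPM and then at 889.7, 929 and 1001 CPM, with overlap (0.07, SE 0.13, adjusted p = 0.767). For both, control replicate 3 was the highest library, as it was for 3 of the 74 protein genes. The sources used here do not give how RNA was selected for the libraries.

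The cytosolic ribosome gave the nearest comparison, since its genes are also short and numerous. Of 78 tested genes edgeR called 5 lower, beside 7.39% of all tested genes, and DESeq2 13, beside 8.08%. With the length and GC offset 40 were called lower, beside 18.2%. At an unadjusted p under 0.05 in edgeR 50 of the 78 were lower, beside 16.3% of all tested genes. The fitted change lay below 0 for 75, beside 49%. All knockdown libraries lay below all controls for 44 (56.4%), beside 19.6%. Among the 74 mitochondrial ribosomal genes the last 3 counts were 26, 63 and 25. The median log2 fold change was -0.3, beside -0.21 over all 74 mitochondrial ribosomal genes. Here too the calls moved with the libraries: 39 were lower without control replicate 1, with a median of -0.17, and 59 without control replicate 3, with a median of -0.4. In these 2 fits 15.5% and 13.4% of all tested genes were called lower. The count was 0 in the edgeR fits without control replicate 2 or without lncSLCC1 siRNA replicate 1, 2 or 3. There 2.26%, 2.04%, 1.6% and 1.56% of all tested genes were called lower, in that order. At an unadjusted p under 0.05, 38, 33, 19 and 29 of the 78 were lower in these fits. The shares of all tested genes at that threshold were not computed. Control replicate 1 was the highest library for 72 of the 78, and their summed level after lncSLCC1 siRNA was 81.9% of control. The difference between both ribosomes was not tested.

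**Figure D5:**
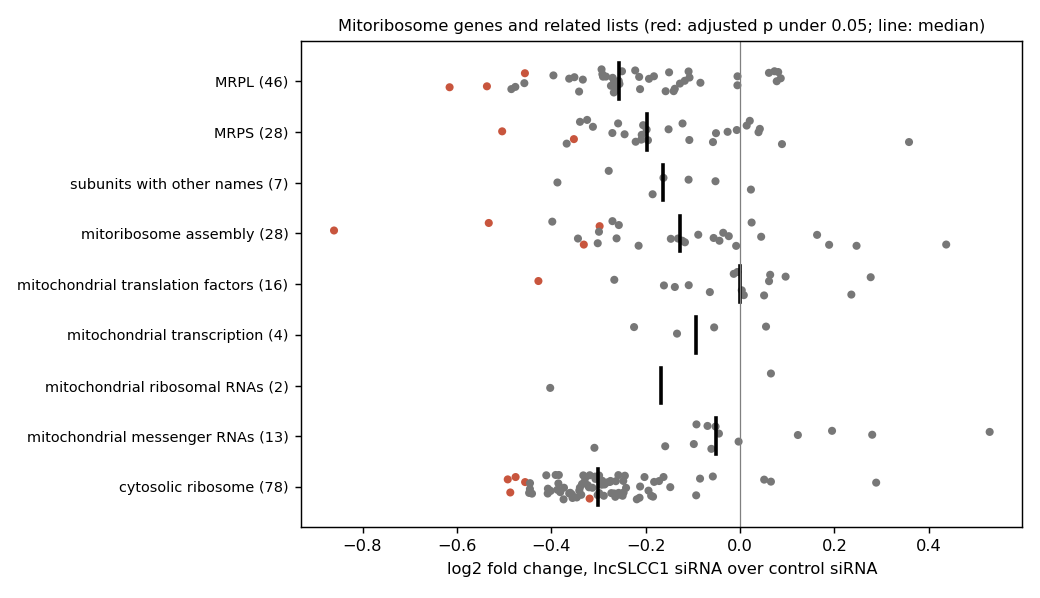
Log2 fold change (x axis) of each tested gene in the mitochondrial ribosome, the related lists and the cytosolic ribosome, with the number of genes in parentheses, genes past an adjusted p of 0.05 in red and a bar at each median. The medians of both subunits and of the cytosolic ribosome lie farther below 0 than those of the translation factors and the mitochondrial messenger RNAs, and MPV17L2 is the red point at the far left.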

How the data were processed

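For each of the 6 libraries the authors deposited raw counts, whole numbers of reads per gene that are not normalized. The submitters' processing notes name TopHat2 2.0.11 and HTSeq with builds hg19 and GRCh37. The sources used here do not give the strand setting or annotation release. HTSeq's summary lines (no feature 5.42% to 7.58%, ambiguous 8.83% to 10.1%, not unique 12.8% to 13.8% per library) entered neither library sizes nor tests.

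Groups came from the labels. edgeR 4.0.16 (R 4.3.3) was run on all genes with its default expression filter, TMM library sizes and quasi-likelihood test, with Benjamini-Hochberg adjustment over all 15242 tested genes and a threshold of 0.05. The biological coefficient of variation, from the common dispersion, was 10.9%. CPM used TMM library sizes. TPM used all deposited counts over GENCODE 29 lengths, matched for 63.1% of symbols. The fit was also run on simulated counts with the same dispersion in every library and larger changes than those of the ribosomal genes. That setting cannot show how the test behaves where controls vary more than knockdown libraries. Alternatives were DESeq2 1.42.0, limma 3.58.1 (voom), other scalings and filters, a replicate block, a length and GC offset, leaving out each library and, chosen after seeing the data, leaving out called genes. The chi-square per gene between replicates was 1.86 to 1.99 for pairs of knockdown libraries. It was 17.3 for controls 1 and 2, 30.6 for controls 1 and 3 and 5.91 for controls 2 and 3. No library was counted as a copy of another.

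The ribosomal genes and all lists were chosen with earlier results of these data known. Named were all called mitochondrial ribosomal genes, the 4 with the smallest p per subunit and direction, and the 3 with most and fewest reads per subunit. The MRPS18 paralogues, MRPS30, MRPS36, MRPL42, MT-RNR1, MT-RNR2, the siRNA target and called genes of related lists were also named. Called genes of the cytosolic ribosome were counted and not named. Gene coordinates were read only from RefSeq promoters on GRCh38.p14, and no position of the deposited counts on hg19 is given.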

Additional observations from a re-analysis of the deposited data

How the results depend on the processing

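The number of ribosomal genes called lower, 5 in edgeR's fit of all libraries, was 3 with library totals, 3 with a mean CPM of at least 1, 3 in limma-voom, 8 in DESeq2, 15 with no low-count filter and 20 with the length and GC offset, and ranged from 0 to 31 with 1 library left out. All genes called lower numbered 1126 (7.39% of those tested), and under the same alternatives 814 (5.34%), 1091 (7.7%), 1047 (6.87%), 1232 (8.08%), 1672 (5.57%) and 2769 (18.2%). The fit with no low-count filter tested 30025 genes, 76 of them ribosomal. With 1 library left out the share of all tested genes called lower ranged from 1.56% to 15.5%. The split of all calls was 1126 lower and 984 higher with TMM, and 814 and 1442 with library totals. The number of ribosomal genes called higher, 0 beside 6.46% of all tested genes, was 1 with no filter (beside 5.33%) and 2 with the offset (beside 12.5%). It ranged from 0 to 2 with 1 library left out, beside 1.37% to 13.5% of all tested genes. Leaving out a library gave medians of -0.155 to -0.345 for the large and -0.0752 to -0.231 for the small subunit, and ratio differences of -0.0904 to -0.117. The ratio difference, -0.104, was 0.036 from medians of levels, -0.126 per transcript length and -0.0686 without called genes. The causes were not tested.

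The replicate block gave 6 genes lower, beside 6.95% of all tested genes. Same-numbered libraries correlated at 0.094, 0.001 and -0.016 in their deviations, so the numbers were not taken as pairs.

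Some single genes near 0 changed sign. The log2 fold change of MRPS34 was 0.0663 with library totals, 0.0038 with the block, 0.0051 in limma-voom and 0.127 with the offset, that of MRPS27 0.0207 and that of MRPS18C 0.0461 with library totals, and that of MRPL22 -0.0535 with the offset. Among genes named by the rule and the ribosomal RNAs, with 1 library left out the range crossed 0 for MRPS34 (-0.112 to 0.124), MRPS27 (-0.0966 to 0.0248), MRPS18C (-0.117 to 0.105), MRPS28 (-0.344 to 0.0154), MRPS9 (-0.044 to 0.0943), MRPL49 (-8e-04 to 0.176), MRPL1 (-0.0257 to 0.161), MRPL22 (-0.0446 to 0.181) and MT-RNR2 (-0.0664 to 0.233). With 3 libraries a group, the median 95% interval reached 0.26 to either side for large and 0.24 for small subunit genes on the log2 scale. In most single genes smaller differences could not be told from 0 even before adjustment. The adjusted test also missed larger fitted changes, such as -0.48 for MRPL54 (adjusted p = 0.0758, edgeR's quasi-likelihood test).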
